A study of Mus musculus with 19 samples.

Results

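The 10 genes described here encode the parts of a single signalling route, nuclear factor kappa B (NF-kB): the 5 DNA-binding subunits Nfkb1, Nfkb2, Rel, Rela and Relb, the inhibitors Nfkbia and Tnfaip3, the receptors Tlr4 and Il1r1, and their shared adaptor Myd88. They were taken by gene symbol, and all 10 were found among the 39179 genes counted. RNA came from cerebral microvessels of male C57BL/6 mice bought at 7 weeks of age, and polyadenylated transcripts were read from 1 end with strand kept in the library. The 19 libraries fall into 5 groups: room air (titled Room-air, 4 libraries), e-cigarette vapour without nicotine (Nic-free, 4), e-cigarette vapour with nicotine (Nic, 3), cigarette smoke (smoke, 4) and a further set titled air (4), which carries the same room air label as the first. The age at collection, the length of exposure and any pooling of animals are not given in the sources used here. Titles alone made Room-air the control of the vapour groups and air the control of smoke, because no label ties a control set to an exposure.

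NF-kB subunits pair up into dimers that bind kappaB sites in DNA. At rest, inhibitor proteins such as IkB-alpha, the product of Nfkbia, hold the dimers in the cytoplasm. Lipopolysaccharide acting on Tlr4, or interleukin-1 acting on Il1r1, recruits the adaptor Myd88 and leads to an IkB kinase that marks IkB-alpha for destruction, and the freed dimers enter the nucleus. Nfkbia and Tnfaip3 are themselves classical targets of these dimers, so that their transcripts form a negative feedback, and in brain endothelium the route is known for switching on leukocyte adhesion molecules and chemokine genes.

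Nfkbia passed in 4 of the 6 comparisons below and Rela is the subunit it is set beside, so the DNA just upstream of their first exons is shown, together with that of Rel. The bases are RefSeq sequence of build GRCm38.p6, each on the strand of its gene, 5′ to 3′: chr12:55492648-55492897 on the minus strand for Nfkbia, chr11:23770971-23771219 on the minus strand for Rel and chr19:5637291-5637482 on the plus strand for Rela. Capitals mark matches on either strand to the kappaB consensus, a 10-base pattern that opens with G bases and closes with C bases.
Nfkbia: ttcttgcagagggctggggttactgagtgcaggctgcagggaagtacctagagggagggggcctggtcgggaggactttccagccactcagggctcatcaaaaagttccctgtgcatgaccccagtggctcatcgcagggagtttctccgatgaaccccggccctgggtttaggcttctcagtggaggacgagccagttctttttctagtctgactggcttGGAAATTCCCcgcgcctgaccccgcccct
Rel: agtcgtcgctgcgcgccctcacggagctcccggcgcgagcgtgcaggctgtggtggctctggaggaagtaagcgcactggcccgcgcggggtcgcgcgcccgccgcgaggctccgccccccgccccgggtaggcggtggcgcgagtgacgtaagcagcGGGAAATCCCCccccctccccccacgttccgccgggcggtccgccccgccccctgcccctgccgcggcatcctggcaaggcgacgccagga
Rela: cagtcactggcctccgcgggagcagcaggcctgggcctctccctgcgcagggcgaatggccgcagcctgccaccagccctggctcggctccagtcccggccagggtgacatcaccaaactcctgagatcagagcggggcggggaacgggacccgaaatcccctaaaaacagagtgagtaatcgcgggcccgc
The Nfkbia match GGAAATTCCC lay from base -29 to base -20 relative to the RefSeq start, on the minus strand of the window. In Rel, 2 overlapping matches fell between bases -92 and -82. The printed Rela bases held no match, which says only that these letters are absent from this stretch. RefSeq windows of 250 upstream bases were at hand for 7 of the 10 genes, and 5 of these 7 held at least 1 match: Nfkb2 (among them GGGACTTTCC from base -225 to -216 of 1 of its windows), Rel, Nfkbia, Tnfaip3 (GGAAATCCCC from base -12 to -3) and Il1r1 (GGAATGCCCC from base -232 to -223). Rela and Myd88 held none. Windows follow RefSeq starts, and some lie within the gene as annotated by GENCODE. In the windows of the named Nfkb2 and Tnfaip3 matches, 16 and 3 bases precede the first annotated exon base, and these held 0 matches. Another Nfkb2 window (chr19:46305445-46305694), inside the gene, held 0 annotated exon bases and 1 match, GGAATGTCCC from base -236 to -227. The Il1r1 window with a match (chr1:40266336-40266585) lay inside its gene. Among 32841 such windows of all genes, 7.25% held a match, and of the 27018 genes 8.24% did. A match is a description of letters and not evidence of binding.

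Transcript levels are given as CPM, the reads of a gene per 1e6 reads assigned to genes in that library. Divided by exon length, they can be set side by side between genes only roughly. That length takes all annotated exons of a gene together, and its transcripts may use only part of them. It was 12061 bases for Nfkb1 and 3072 for Rela, whose Room-air means were 48.2 and 48.5 CPM, so the order below depends on it. In the Room-air set Nfkbia stood first at 74.2 ± 6.8 CPM per kb (SD, n = 4), followed by Rela, the main activating subunit, at 15.8 ± 0.73 CPM per kb. Il1r1 came next at 9.11 ± 5.56 CPM per kb, a spread that overlapped both Rela above it and Myd88 (4.91 ± 0.61 CPM per kb) below it. Nfkb1, whose product is processed to p50, reached 3.99 ± 0.18 CPM per kb. Relb and Nfkb2, the pair of the non-canonical route, lay at 3.05 ± 0.48 and 2.18 ± 0.67 CPM per kb, and their ranges overlapped. At the low end were Tnfaip3, which encodes the ubiquitin-editing enzyme A20 (0.84 ± 0.19 CPM per kb), Tlr4 (0.51 ± 0.19 CPM per kb), whose range overlapped that of Tnfaip3, and Rel (0.093 ± 0.014 CPM per kb). Nfkbia was first and Rela second in each of the 5 groups, with no overlap between them, and Tlr4 and Rel were the lowest 2 in each. The middle of the order moved: Il1r1 stood above Myd88 in Room-air, Nic and air and below it in Nic-free and smoke, and the ranges of this pair overlapped in every group.

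Depth, as reads assigned to genes, was 25266790 to 30185056 in Room-air, 15200536 to 19137859 in Nic-free, 21800157 to 28364198 in Nic, 9761373 to 13490373 in air and 7939180 to 12607538 in smoke. Rel rested on 3 to 27 reads per library and Tlr4 on 12 to 119, so that counting error is large for both, whereas Nfkbia had at least 371. All 20 endothelial and all 9 pericyte markers had reads in every library, and so had all 15 neuron, 14 microglia and 8 oligodendrocyte markers. By summed level, endothelial markers reached 1718 to 6599 CPM over the 19 libraries, below the neuron (6792 to 11550 CPM) and oligodendrocyte markers (9226 to 31891 CPM), so vessel markers were present without being the most abundant of these lists. In such bulk RNA fewer cells of a type and less RNA per cell cannot be told apart. None of 65 exact permutation tests of marker levels between groups passed after Benjamini-Hochberg adjustment (lowest adjusted p = 0.0977, where the smallest unadjusted two-sided p the design allows is 0.0286). Several of these tests stood at that smallest p, so missing the threshold does not show equal marker levels. The labels do not say that libraries came from separate animals, so each p-value speaks of the scatter among these libraries and may be technical.

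**Figure D1:**
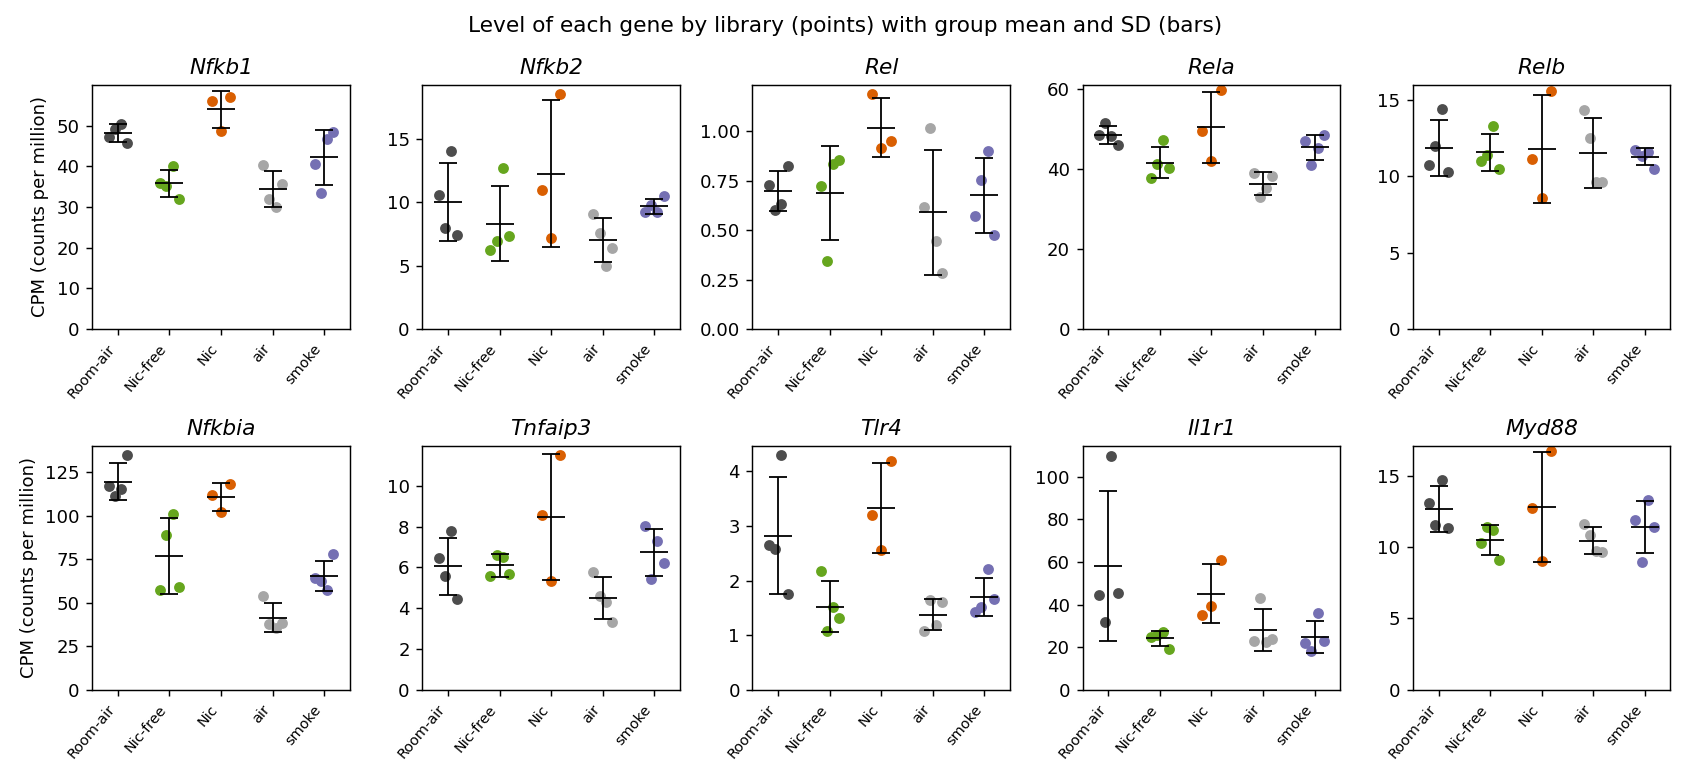
CPM of each of the 10 genes (vertical axis, linear from 0) in each library (points) of the 5 groups, with group mean and SD as bars. Nfkbia sits between 111 and 135 in Room-air but between 35.2 and 53.6 in air, although both sets carry the room air label.

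The other members are given by group. Relb, which pairs with the Nfkb2 product, measured 11.9 ± 1.86 CPM in Room-air, 11.6 ± 1.20 in Nic-free, 11.8 ± 3.54 in Nic, 11.5 ± 2.31 in air and 11.3 ± 0.50 in smoke. Nfkb2 averaged 7.01 ± 1.75 CPM in air, 8.33 ± 2.98 in Nic-free, 9.72 ± 0.61 in smoke, 10 ± 3.05 in Room-air and 12.3 ± 5.82 in Nic. Every pair of groups overlapped in Nfkb2 except air and smoke, where the highest air library (9.10 CPM) stayed under the lowest smoke library (9.26 CPM). Rel, a subunit known mainly from lymphoid and myeloid cells, averaged 0.59 to 0.70 CPM in 4 groups and 1.02 ± 0.15 CPM in Nic. Myd88 averaged 10.4 to 12.8 CPM over the 5 groups, with ranges that all overlapped. Tnfaip3 ran from 4.5 ± 1.02 CPM in air to 8.46 ± 3.05 CPM in Nic.

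The first question was what vapour without nicotine did to these transcripts. In Nic-free 4 of the 10 genes fell against Room-air and none rose, by edgeR's quasi-likelihood test at an adjusted p under 0.05: the subunit Nfkb1, the inhibitor Nfkbia and the receptors Tlr4 and Il1r1. Of all 17235 genes tested 21.8% were called, 10.4% lower and 11.3% higher. The CPM ranges of 3 of the 10 lay apart with Nic-free lower and of none with Nic-free higher, as did those of 15.6% and 11.2% of all genes. The median log2 fold change of the 10 was -0.21, against 0.0042 for all genes, and 7 of the 10 estimates were negative.

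Among the subunits, Nfkb1 (chr3:135584655-135691547 on the minus strand, GENCODE M21, GRCm38) measured 47.1, 49.2, 50.5 and 45.7 CPM in Room-air 1 to 4 and 36.0, 35.2, 40.1 and 32.0 CPM in Nic-free 1 to 4. Every Nic-free library lay below every Room-air library. The log2 fold change was -0.38 ± 0.09 (SE; edgeR adjusted p = 0.00813), and the call held when any 1 library was left out (-0.43 to -0.32). Rela, the usual partner of p50, gave -0.17 ± 0.10 (edgeR adjusted p = 0.262), and Relb, Rel and Nfkb2 lay between -0.21 and 0.03, none past the threshold.

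Of the inhibitors, Nfkbia (chr12:55489410-55492647 on the minus strand) measured 117, 111, 115 and 135 CPM in Room-air 1 to 4. In Nic-free 1 to 4 it measured 57.5, 88.8, 101 and 59.1 CPM. The groups did not overlap, but Nic-free 1 and 4 lay well under Nic-free 2 and 3, which came near the Room-air libraries. The log2 fold change was -0.59 ± 0.16 (edgeR adjusted p = 0.0189). Without Room-air 4 or without Nic-free 4 the adjusted p was 0.0514 and 0.0534. With the air set as control the direction turned (0.89, edgeR adjusted p = 0.00473), and with both air sets as 1 control the value was -0.05 (adjusted p = 0.956). Tnfaip3 averaged 6.06 ± 1.39 CPM in Room-air and 6.10 ± 0.55 CPM in Nic-free, with a log2 fold change of 0.06 ± 0.21 (edgeR adjusted p = 0.859).

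Of the receptors, Tlr4 (chr4:66827584-66930284 on the plus strand), which senses lipopolysaccharide, measured 2.65, 2.58, 4.31 and 1.76 CPM in Room-air 1 to 4 and 2.17, 1.08, 1.52 and 1.32 CPM in Nic-free 1 to 4. Nic-free 1 lay above Room-air 4, so the groups overlapped. The log2 fold change was -0.84 ± 0.29 (edgeR adjusted p = 0.0483). That call was lost in 6 of the 8 fits with 1 library left out (without Room-air 1, 2 or 3 or Nic-free 2, 3 or 4), at -0.89 to -0.58 and adjusted p of 0.0699 to 0.153.

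Il1r1 (chr1:40225080-40317257 on the plus strand), the signalling receptor of interleukin-1, measured 44.5, 31.8, 110 and 45.4 CPM in Room-air 1 to 4 and 24.9, 25.7, 26.9 and 19.2 CPM in Nic-free 1 to 4. All 4 Nic-free libraries were below the lowest Room-air library, and Room-air 3 stood far above its group. The log2 fold change was -1.21 ± 0.38 (edgeR adjusted p = 0.0482). Without Room-air 3 it was -0.70 and still passed, whereas leaving out Room-air 1, Room-air 4 or any of the 4 Nic-free libraries gave adjusted p of 0.0558 to 0.115. The adaptor Myd88 gave -0.21 ± 0.16 (edgeR adjusted p = 0.372). Its counts and those of Nfkb2 are uncertain, since each shares exon positions with a gene on the opposite strand (Acaa1a for Myd88, AC114539.1 and Psd for Nfkb2) and no source used here says whether reads were counted by strand.

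Levels of cell type markers in the same comparison are given beside these values. No list passed its test after adjustment. The astrocyte, microglia, neuron, oligodendrocyte and choroid lists each gave 0.0286, the smallest unadjusted p that the exact permutation test allows. A list can hardly pass after adjustment with so few libraries, so not passing does not show equal levels. The 12 choroid plexus and ependyma markers, all detected, summed to 17593 to 24884 CPM in Room-air and 897 to 18472 CPM in Nic-free, and the 20 endothelial markers to 3592 to 4939 and 2546 to 3880 CPM. Neuron markers summed to 7381 to 8313 CPM in Room-air and 9913 to 11407 CPM in Nic-free, and the 6 perivascular macrophage markers to 31.1 to 68.8 and 25.3 to 37.2 CPM. With the mean choroid marker level in the model none of the 10 genes passed (Nfkbia -0.53, adjusted p = 0.335, Nfkb1 -0.31, adjusted p = 0.275, Tlr4 -0.59, adjusted p = 0.543, Il1r1 -0.88, adjusted p = 0.504, all edgeR). With the neuron marker level none passed either (Nfkbia -0.47, Nfkb1 -0.20, Tlr4 -0.34, Il1r1 -0.54). Of all 17235 genes 122 passed with the choroid and 62 with the neuron marker level, in place of 3753, so the loss is not particular to the 10. Neuron marker sums lay apart between the groups, and choroid sums overlapped only through Nic-free 1 (18472 CPM). These models can therefore hardly separate the marker level from the group, and they do not decide the part of choroid or neuron content. The part of endothelial or macrophage content in these differences was not tested either.

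Around these genes, 15 of the 84 tested pathway genes outside the 10 passed in Nic-free against Room-air, 8 higher and 7 lower, of a list of 95. Of all genes tested 21.8% passed, so the share is no higher than the background. Among 22 kinases and adaptors 1 rose and 4 fell: Irak1 rose by 0.38 ± 0.09 on the log2 scale, whereas Irak2, its relative in the Myd88 complex (-0.62 ± 0.09), the death-domain kinase Ripk1 (-0.75 ± 0.18) and the catalytic IkB kinase subunit Ikbkb (-0.29 ± 0.09) were lower. Among receptors and co-receptors, Ly86 and Cd180, which encode a receptor pair of the Toll family, were higher by 0.98 ± 0.13 and 0.89 ± 0.18. Tlr7, a sensor of RNA, and Tlr5, a sensor of flagellin, were lower (-0.76 ± 0.21 and -0.83 ± 0.25). The ligand genes Il33 and Il18 were higher by 0.41 ± 0.10 and 0.50 ± 0.13. Of 20 tested target genes the chemokines Ccl4, Ccl3 and Cxcl10 were higher by 1.71 ± 0.39, 1.38 ± 0.37 and 1.14 ± 0.39, and the survival gene Bcl2l1 was lower (-0.79 ± 0.09). The mean levels of these chemokines were 0.54 to 1.0 CPM in Nic-free and 0.17 to 0.47 CPM in Room-air. Cxcl10 passed narrowly (edgeR adjusted p = 0.0496) and in 4 of 18 alternatives, Ccl3 in 7 of 13 and Ccl4 in 13 of 15. Ccl3 rested on 3 to 15 reads per library in these 2 groups, and Ccl4 on 3 to 9 in Room-air and 8 to 10 in Nic-free. No other inhibitor of 13 passed. Microglia markers summed to 766 to 904 CPM in Room-air and 1007 to 1108 CPM in Nic-free (all 14 detected). The part of microglia in the higher and the lower values above was not tested.

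Vapour with nicotine left none of the 10 genes past the threshold against Room-air, where 3.89% of the 17235 genes passed, 1.22% higher and 2.67% lower. None had an unadjusted edgeR p under 0.05, and DESeq2 called none. The median log2 fold change was 0.09, against 0.03 for all genes. Nfkbia measured 112, 102 and 118 CPM in Nic 1 to 3, overlapping Room-air, and its log2 fold change was -0.13 ± 0.17 (edgeR adjusted p = 0.685). The largest estimates were Rel at 0.52 ± 0.27 and Tnfaip3 at 0.46 ± 0.22 (edgeR adjusted p = 0.261 and 0.213). Only Rel had ranges apart, with Nic higher and none lower, as had 8.19% of all genes in that direction and 8.8% in the other. Nfkb1 measured 56.1, 48.7 and 57.1 CPM in Nic 1 to 3, overlapping Room-air, and gave 0.14 ± 0.09 (edgeR adjusted p = 0.361). Of the 84 other pathway genes only Bcl2l1 passed (-0.48 ± 0.09, edgeR adjusted p = 0.0218).

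Nic against Nic-free set vapour with nicotine beside vapour without it. It shares its libraries with the preceding comparisons and is no independent evidence. Of the 10 genes 2 were higher and none lower, Nfkb1 and Tlr4, where 24.8% of all genes were called, 12.4% higher and 12.4% lower. All 3 Nic libraries lay above all 4 Nic-free libraries for both, and the ranges of 5 of the 10 genes lay apart in this direction, as did 20.7% of all genes, against 0 of 10 and 13.2% in the other. Nfkb1 was higher by 0.52 ± 0.09 (edgeR adjusted p = 0.00152), with or without any single library (0.46 to 0.58). Tlr4, at 3.21, 2.56 and 4.20 CPM in Nic 1 to 3, was higher by 1.06 ± 0.30 (edgeR adjusted p = 0.0196), and this call was lost without Nic-free 2, Nic-free 4 or Nic 3 (0.85 to 1.00, adjusted p of 0.051 to 0.0694).

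Nfkbia gave 0.46 ± 0.17 in Nic against Nic-free (edgeR adjusted p = 0.0637) and Il1r1 0.83 ± 0.40 (edgeR adjusted p = 0.16). The median over the 10 genes was 0.47, against 0.02 for all genes, and 9 of 10 estimates were positive, Relb being the exception at -0.04 ± 0.18. Neuron markers summed to 7679 to 8067 CPM in Nic and 9913 to 11407 CPM in Nic-free, and oligodendrocyte markers to 9226 to 15181 and 18766 to 20578 CPM. Endothelial markers summed to 3686 to 6599 CPM in Nic and 2546 to 3880 CPM in Nic-free, pericyte markers to 1346 to 2377 and 996 to 1419 CPM, and perivascular macrophage markers to 37.5 to 77.1 and 25.3 to 37.2 CPM. The part of these cell types was not tested. With the mean neuron marker level in the model neither Nfkb1 nor Tlr4 passed (Nfkb1 0.31, adjusted p = 0.372, Tlr4 0.50, adjusted p = 0.678, edgeR), and of all genes 9 passed in place of 4273. Neuron marker sums lay apart between the groups, so this model can hardly separate the marker level from the group.

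Of the 84 other pathway genes tested 11 were higher and 5 lower in Nic than in Nic-free, with 5 higher and 1 lower among the 22 kinases and adaptors. Over all genes 24.8% passed, so this share too is no higher than the background. Both catalytic IkB kinase genes, Ikbkb and Chuk, were higher (0.52 ± 0.09 and 0.51 ± 0.13 on the log2 scale), as were Irak2 (0.53 ± 0.10) and Ripk1 (0.81 ± 0.19). Nfkbiz and Nfkbid, which encode nuclear atypical IkB proteins, were higher by 0.41 ± 0.12 and 0.43 ± 0.14, and the ubiquitin ligase gene Itch by 0.27 ± 0.09, whereas Tollip, a negative regulator of Toll signalling, was lower (-0.51 ± 0.16). Tlr7 was higher by 0.90 ± 0.22, and Ly86 (-0.79 ± 0.14) and Il33 (-0.74 ± 0.11) were lower. Of the targets, Ptgs2, which encodes cyclooxygenase-2, and Bcl2l1 were higher (0.90 ± 0.28 and 0.31 ± 0.09) and Sod2, the mitochondrial superoxide dismutase, was lower (-0.49 ± 0.12). Several of these calls depended on the setting. Nfkbid and Itch passed in 6 of 16 alternatives, Ptgs2 in 7, Bcl2l1 in 8, Tollip in 10 and Nfkbiz in 11. Sod2 passed in 14 and the other genes named here in 15.

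**Figure D2:**
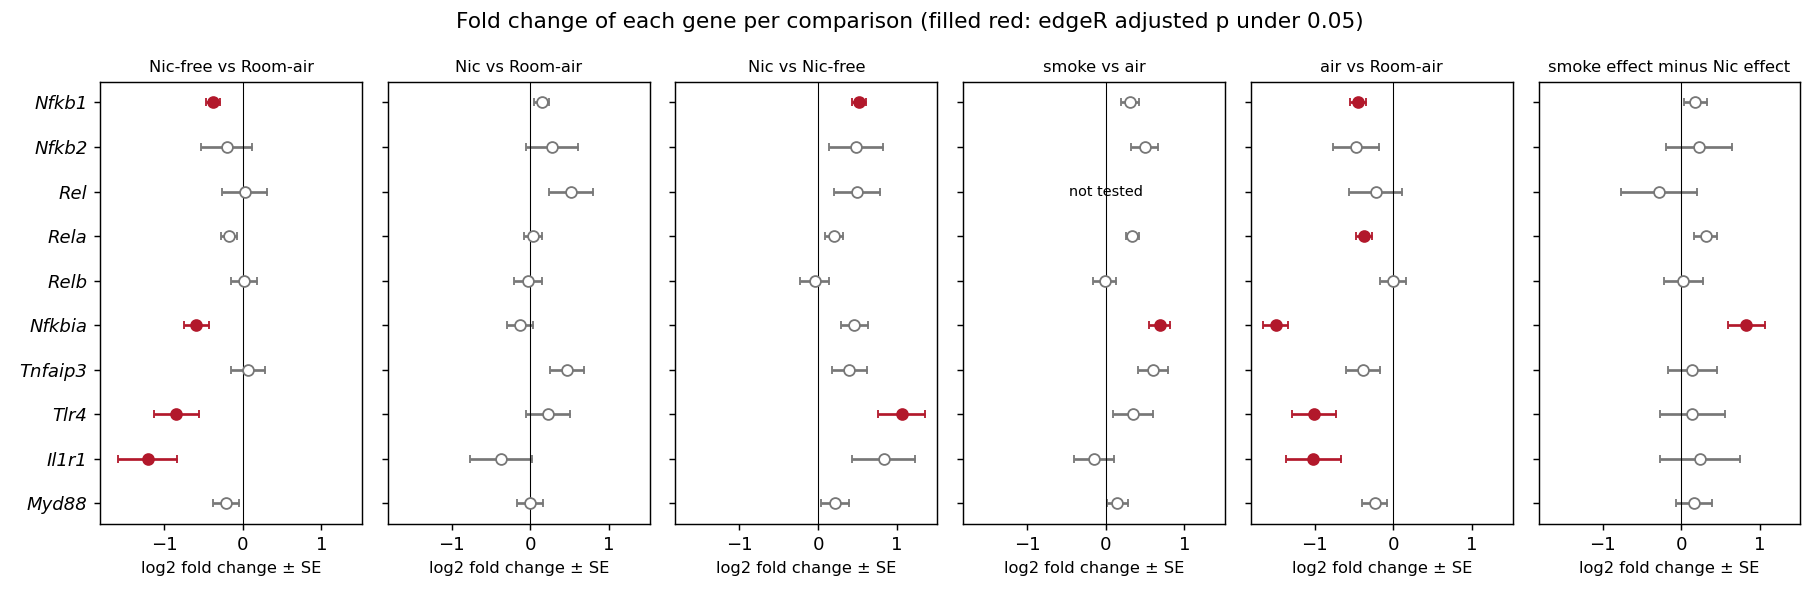
log2 fold change of each of the 10 genes (horizontal axis, points with SE bars) in the 6 comparisons, with filled red points at an edgeR adjusted p under 0.05. Red points lie to the left in Nic-free and air against Room-air (4 and 5 genes) and to the right in Nic against Nic-free (2) and smoke against air (1).

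In smoke against the air set 1 of the 9 genes tested was higher and none lower, Nfkbia, where 1.6% of the 15232 genes tested were called, 1.08% higher and 0.519% lower. Rel had too few reads to be tested. Nfkbia measured 53.6, 38.0, 35.2 and 38.2 CPM in air 1 to 4 and 63.9, 62.3, 57.3 and 77.7 CPM in smoke 1 to 4. All smoke libraries exceeded all air libraries, and air 1 stood above the rest of its group. The log2 fold change was 0.68 ± 0.13 (edgeR adjusted p = 0.0387). It was lost in 6 of 8 fits with 1 library left out (air 2, 3 or 4 or smoke 1, 2 or 4), with log2 fold changes of 0.59 to 0.70 and adjusted p of 0.0633 to 0.121, and its direction turned with the Room-air set as control (-0.82, edgeR adjusted p = 0.00722).

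Other members pointed the same way in smoke without passing. Rela measured 39.1, 33.0, 35.2 and 38.2 CPM in air 1 to 4 and 46.9, 41.1, 45.2 and 48.5 CPM in smoke 1 to 4. These ranges did not overlap, and the log2 fold change was 0.34 ± 0.09 (edgeR adjusted p = 0.0681). Nfkb2 gave 0.50 ± 0.17 and Tnfaip3 0.60 ± 0.19 (edgeR adjusted p = 0.148 and 0.12). Non-overlapping ranges with higher smoke values were seen for 3 of the 10 genes and for 5.48% of all genes tested, and lower smoke values for 0 and 5.84%. Relb (-0.01 ± 0.15) and Il1r1 (-0.15 ± 0.25) were the only negative estimates, and the median over the 9 genes was 0.34, against 0.02 over all genes.

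Endothelial markers summed to 1718 to 3099 CPM in air and 3092 to 4109 CPM in smoke, pericyte markers to 636 to 1090 and 972 to 1394 CPM, and microglia markers to 778 to 832 and 897 to 1190 CPM. Their part in the Nfkbia difference was not tested. With the choroid or the neuron marker level in the model the log2 fold change of Nfkbia was 0.69 and 0.73, and it passed in both (edgeR adjusted p = 0.00909 and 0.0462). Of 70 other pathway genes tested only S100a8 passed, a neutrophil protein that acts on Tlr4, and it was lower (-2.08 ± 0.40, edgeR adjusted p = 0.0387) at mean levels of 0.28 CPM in smoke and 1.32 CPM in air. S100a8 had only 1 to 5 reads per smoke library, and it passed in 4 of 15 alternatives. The 10 neutrophil and monocyte markers summed to 1.72 to 3.69 CPM in smoke and 3.96 to 7.17 CPM in air. S100a8 itself and S100a9 are in that list, so the sum is not separate from the S100a8 value. Ly6g and Elane were at 0 in both groups.

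The direction of the Nfkbia difference turned with the control set. Between the 2 sets with the room air label 5 of the 10 genes were lower in air than in Room-air and none higher, where 22.7% of 16557 genes were called, 12.0% lower and 10.7% higher. Ranges lay apart with air lower in 4 of the 10 genes and in 16.5% of all, and with air higher in 0 and in 9.9%. Nfkbia averaged 41.2 ± 8.3 CPM in air (n = 4) and 119 ± 11 CPM in Room-air (n = 4). Its log2 fold change was -1.50 ± 0.16 (edgeR adjusted p = 1.84e-05), larger in size than in any exposure comparison, and it passed under all 16 alternatives run. Nfkb1 (-0.45 ± 0.10) and Rela (-0.38 ± 0.10) also passed (edgeR adjusted p = 0.00456 and 0.0111) with any 1 library left out. Tlr4 (-1.01 ± 0.28, edgeR adjusted p = 0.0155) lost its call without Room-air 3 or air 3, at -0.74 and -0.94. Il1r1 (-1.02 ± 0.35, edgeR adjusted p = 0.0463) lost it without Room-air 3, air 1, air 3 or air 4, and was -0.51 without Room-air 3.

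Smoke at 65.3 ± 8.7 CPM of Nfkbia (n = 4) and Nic-free at 76.5 ± 21.7 CPM (n = 4) lay between the 2 air sets. Against the Room-air set, smoke would be lower (-0.82, edgeR adjusted p = 0.00722), and against the air set, Nic-free (0.89, edgeR adjusted p = 0.00473) and Nic (1.35, edgeR adjusted p = 5.87e-05) would be higher. The other Nic-free calls were also lost against the air set, with log2 fold changes of 0.06 for Nfkb1, 0.15 for Tlr4 and -0.20 for Il1r1. What separates the 2 sets beyond the title is not given in the labels, and their depth does not overlap. Endothelial markers summed to 3592 to 4939 CPM in Room-air and 1718 to 3099 CPM in air, choroid markers to 17593 to 24884 and 3727 to 24602 CPM, and oligodendrocyte markers to 12762 to 15398 and 22870 to 31891 CPM. With the choroid or the neuron marker level in the model Nfkbia gave -1.60 and -1.50 and passed in both, while Tlr4 and Il1r1 passed in neither. Nfkb1 and Rela passed with the choroid level but not with the neuron level (-0.27 and -0.36, edgeR adjusted p = 0.139 and 0.0824). The set and whatever else differs between these libraries cannot be told apart.

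**Figure D3:**
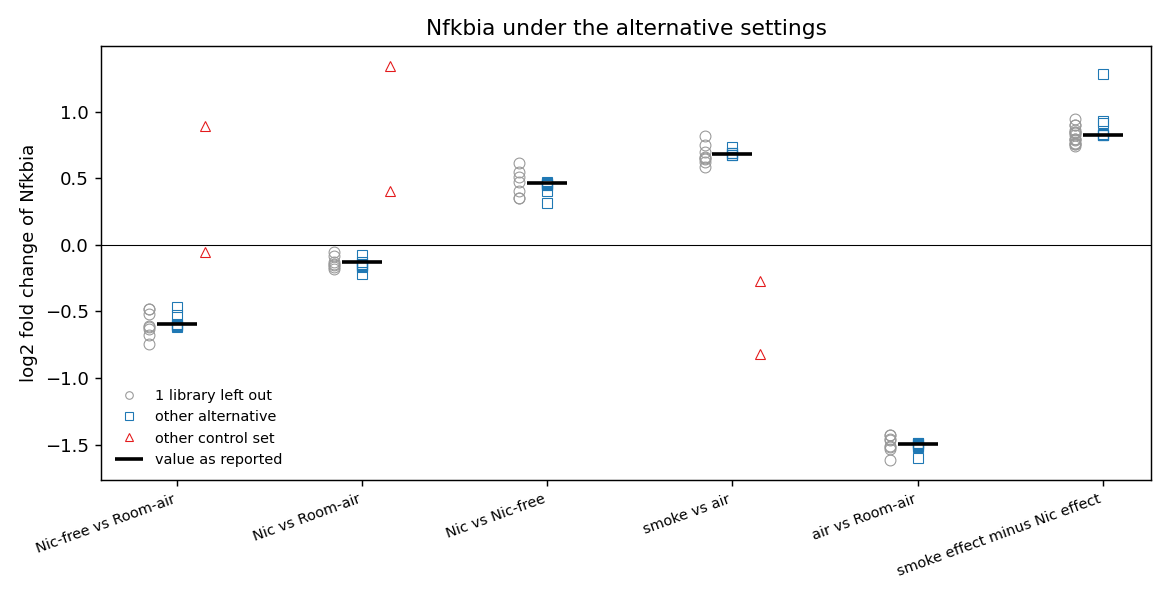
log2 fold change of Nfkbia (vertical axis) in the 6 comparisons as reported (bars), with 1 library left out (circles), with another control set (triangles) and under other settings (squares). Circles and squares stay on the side of the reported value, whereas another control set moves Nic-free from -0.59 to 0.89 and smoke from 0.68 to -0.82.

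Of 80 pathway genes tested outside the 10, 5 were higher and 15 lower in air than in Room-air, a share near the 22.7% of all genes that passed. Irak2 (-0.75 ± 0.11 on the log2 scale), Irak4 (-0.78 ± 0.23), the adaptor Tirap (-0.87 ± 0.18) and Ripk1 (-0.89 ± 0.18) were lower, as were Tlr5 (-1.18 ± 0.26), Tlr9 (-1.60 ± 0.39), Tlr13 (-0.99 ± 0.26) and the tumour necrosis factor receptor gene Tnfrsf1b (-0.95 ± 0.21). The targets Bcl2l1 (-0.72 ± 0.08), Cflar (-0.67 ± 0.18) and the complement gene C3 (-1.18 ± 0.32) were lower and Sod2 was higher (0.37 ± 0.12). The ligand genes Il18 and Il33 were higher by 0.59 ± 0.13 and 0.49 ± 0.13. These values use the same Room-air libraries as the vapour comparisons.

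Whether smoke and nicotine vapour acted alike on these genes was tested as the smoke effect minus the Nic effect, each against its own control. Nfkbia was the only 1 of the 10 to pass, with a larger smoke effect (0.83 ± 0.24, edgeR adjusted p = 0.0459), where 5.59% of 16557 genes passed, 2.78% in this direction and 2.8% in the other. This direction rests on the pairing of each exposure with its own set: against Room-air for both, Nfkbia gave -0.82 in smoke and -0.13 in Nic, and its mean was 65.3 CPM in smoke and 111 CPM in Nic. Its call was lost in 13 of 15 fits with 1 library left out, the exceptions being Nic 3 and smoke 3, at 0.74 to 0.94 and adjusted p of 0.05 to 0.126. For the other 9 genes the estimates ran from -0.28 ± 0.48 (Rel) to 0.32 ± 0.15 (Rela), and none passed. Among the other pathway genes Bcl2l1 passed (0.54 ± 0.12, edgeR adjusted p = 0.0234). A gene that misses the threshold is not shown to respond alike.

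The inhibitor set against its main partner gave a further description, with no test. The ratio of Nfkbia to Rela CPM averaged 2.47 in Room-air (range 2.15 to 2.95), 2.23 in Nic (1.98 to 2.44), 1.82 in Nic-free (1.47 to 2.15), 1.44 in smoke (1.27 to 1.60) and 1.13 in air (1.00 to 1.37). No library of air reached the lowest of Room-air, Nic or Nic-free. Smoke overlapped air and Nic-free and lay below both Room-air and Nic. The order of Nic and Nic-free depended on the subunit chosen. The ratio of Nfkbia to Nfkb1 averaged 2.49 in Room-air (2.25 to 2.96), 2.12 in Nic-free (1.60 to 2.52) and 2.06 in Nic (2.00 to 2.10). It averaged 1.57 in smoke (1.23 to 1.88) and 1.19 in air (1.07 to 1.33). By this ratio Nic lay below Room-air, and Nic-free overlapped Room-air.

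Within groups, single libraries held the highest values of many members. Room-air 3 was the highest of its group in 7 of the 10 genes, Nic 3 in 9, air 1 in 7 and Nic-free 3 in 6, while Nic 2 was the lowest of its group in 9. Room-air 3, Nic 3, air 1 and Nic-free 3 also had the highest endothelial marker sums of their groups (4939, 6599, 3099 and 3880 CPM). Nic 2 had the lowest of Nic (3686 CPM). Smoke 4 had the highest of smoke (4109 CPM), where smoke 3 and smoke 4 were each highest in 4 genes. The part of endothelial content was not tested. How often these libraries were highest over all genes was not counted. In Nic 3 Nfkb2 reached 18.6 CPM, against 11 and 7.19 CPM in Nic 1 and 2, and Tnfaip3 11.5 CPM, against 8.58 and 5.35 CPM. The target gene Lcn2, which encodes the acute-phase protein lipocalin-2, measured 193 CPM in Room-air 3 and 0.74 to 2.25 CPM in the others of that set, 67.6 CPM in Nic 3 and 1.01 and 0.99 CPM in Nic 1 and 2, and 69.7 CPM in air 2 and 1.23 to 17.2 CPM in the rest of air. In Nic-free and smoke Lcn2 stayed between 0.99 and 4.84 CPM. The highest library for Il1r1 was also the highest for Lcn2 in 5 of 5 groups, and for Tlr4 in 4 of 5. The other members shared it in 2 or 3 of 5. With Bcl3, a nuclear IkB protein gene, Relb shared the highest library in 5 of 5 groups and Nfkb1, Nfkb2 and Tnfaip3 in 4. Il1r1, Rela, Nfkbia and Myd88 shared it in 3, Tlr4 in 2 and Rel in 0. With each of the adhesion genes Sele and Selp, Il1r1, Tlr4, Nfkb1, Nfkb2, Tnfaip3 and Myd88 shared it in 3 of 5. Rela, Relb and Nfkbia did so in 2 and Rel in 1. Such matches were not counted over all genes, so no background stands beside them. Lcn2 was picked out after its values were seen, so this is a description. With Room-air 3 and Nic 3 both left out, also chosen after the values were seen, no gene of the 10 passed in Nic against Room-air. In that fit Il1r1 gave -0.51 in air against Room-air (edgeR adjusted p = 0.13).

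**Figure D4:**
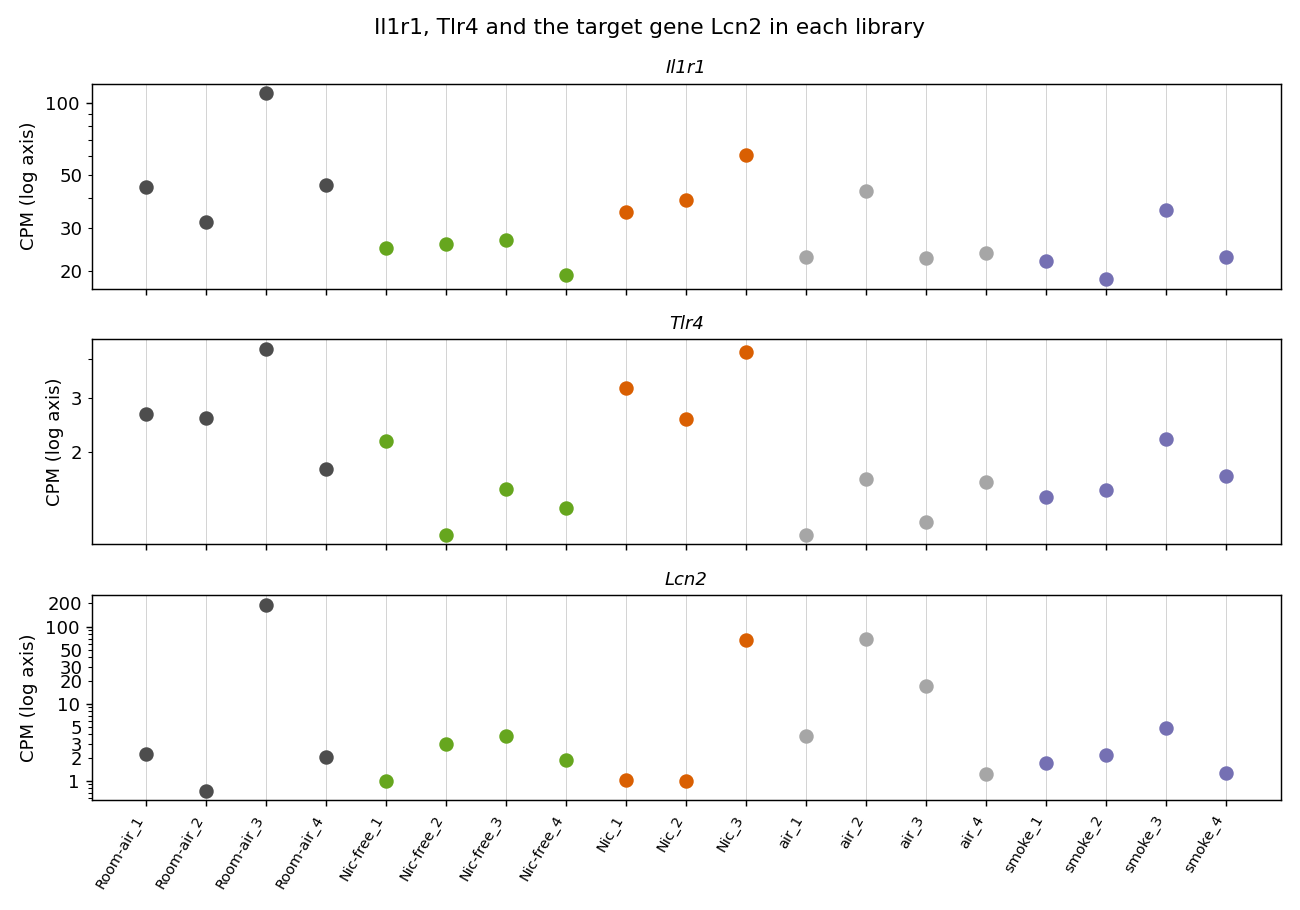
CPM (log axes) of Il1r1, Tlr4 and Lcn2 in each of the 19 libraries, coloured by group. Room-air 3 (110 CPM of Il1r1, 193 of Lcn2), Nic 3 (60.9 and 67.6) and air 2 (42.9 and 69.7) stand above the rest of their groups in both.

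For the members that passed in an exposure comparison, the genes whose centred group means lay nearest, as a root mean square distance in log2 CPM over the 5 groups among 14745 genes, were Ttc37 (0.012) and Ctnnd1 (0.016) for Nfkb1, Tes (0.039) and Tubb6 (0.040) for Tlr4, and Tcim (0.066) and Hspa5 (0.070) for Il1r1. Nfkbia had no neighbour as near: Adnp lay at 0.096 and Lrp5 at 0.107. The group means of Nfkbia spanned 1.53 log2 units, those of Nfkb1 0.59.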

How the data were processed

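The 10 genes and all gene and marker lists were chosen with earlier results of these data known. The authors deposited raw counts for Ensembl genes. Alignment with STAR to mm10 and counting with HTSeq are recorded per the submitters' processing notes. Versions and the strand setting are not given in the sources used here. Names and positions are from GENCODE M21 (GRCm38), and promoter windows from RefSeq (GRCm38.p6). Reads assigned to no gene (28.7 to 45.2% per library) and the other summary lines were kept out of totals and tests. Their share was 28.7 to 33.4% in Room-air, 38.9 to 45.2% in Nic-free, 33.0 to 38.4% in Nic, 33.6 to 37.5% in air and 28.9 to 33.2% in smoke. These ranges lay apart in every comparison of groups made here except Nic against Room-air. The part of this share in the differences was not tested.

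From the counts, edgeR 4.0.16 (R 4.3.3) was run with TMM factors, filterByExpr, robust glmQLFit and two-sided glmQLFTest, with Benjamini-Hochberg adjustment over all genes tested and a threshold of 0.05. The vapour groups were fitted with Room-air, smoke with air, and air against Room-air and the difference of effects came from all 19 libraries. CPM is over all counts assigned to genes. The scripts were tested on simulated data. Replicates within groups all differed by more than sampling noise.

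All 10 genes are named, and of the pathway list, per comparison and role, up to 4 genes past the threshold with the lowest adjusted p. Genes of like pattern are the 2 nearest. The alternatives were DESeq2 1.42.0, RLE factors, no filter, other sets of libraries in the fit, a replicate block, choroid or neuron marker covariates, the other control set, each library left out in turn, and, added after seeing the data, Room-air 3 and Nic 3 both left out. The smoke effect was also set against the Nic-free effect. Intervals and p-values do not account for reads that are not independent molecules.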

Additional observations from a re-analysis of the deposited data

Results flagged for a closer look

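In the air set, 1 library stood far from the other 3 in 2 of the 10 genes: Nfkbia at 53.6 CPM in air 1 (the others 35.2 to 38.2 CPM) and Il1r1 at 42.9 CPM in air 2 (the others 22.6 to 23.6 CPM). Dixon's rule was applied to 40 sets of libraries, and chance flags about 1 in 20.

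The smoke effect on Nfkbia exceeded the Nic effect by 0.828 on the log2 scale (SE 0.236, edgeR adjusted p = 0.0459). Against the Nic-free effect the smoke effect was larger by 1.28 for Nfkbia (adjusted p = 0.000921), 0.69 for Nfkb1 (adjusted p = 0.00274), 0.511 for Rela (adjusted p = 0.0147) and 1.2 for Tlr4 (adjusted p = 0.0443), all by edgeR. These differences take air as the control of smoke and Room-air as the control of vapour. The Nic and Nic-free effects, which share the Room-air control, differed by 0.519 for Nfkb1 and 1.06 for Tlr4.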

How the results depend on the processing

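The number of the 10 genes past the threshold was 4, 0, 2, 1, 5 and 1 in the comparisons Nic-free against Room-air, Nic against Room-air, Nic against Nic-free, smoke against air, air against Room-air and smoke effect minus Nic effect. Leaving out each library in turn gave 1 to 3, 0 to 0, 1 to 3, 0 to 1, 3 to 5 and 0 to 2. In Nic-free against Room-air it was 0 with the choroid or the neuron covariate, 1 (higher) with the air set as control and 0 with both air sets as 1 control. In Nic against Room-air it was 5 with the air set as control. In Nic against Nic-free it was 0 with the neuron covariate. In smoke against air it was 2 with DESeq2, 0 with the replicate block, 2 with the choroid covariate and 0 with both air sets. In air against Room-air it was 3 with the choroid and 1 with the neuron covariate. In smoke effect minus Nic effect it was 0 with no filter, 0 with the replicate block, 0 with the choroid covariate, 4 with the Nic-free effect in place of Nic and 2 with Room-air 3 and Nic 3 left out. The cause of these shifts was not tested.

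With the air set as control, called values of Nic-free changed sign: Nfkb1 0.058, Nfkbia 0.893, Tlr4 0.154, Irak2 0.124, Ripk1 0.123, Il33 -0.09, Il18 -0.098 and Tlr5 0.331. For Nic, Nfkbia became 1.346 and Bcl2l1 0.221. For smoke, Nfkbia became -0.822 with Room-air as control and -0.269 with both sets. Sign changes of values that passed neither way are not listed.

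Equal replicate numbers showed no sign of pairing: deviations of libraries with the same number correlated at -0.31 to 0.278. In 3 of 18 checks, in which libraries recur, a library correlated best with its own number. Such correlations cannot show whether samples were paired in the experiment. With the replicate block Nfkbia in smoke against air had an edgeR adjusted p of 0.0975, and 5 of all genes passed in place of 244. Counts over all genes moved as well: over the alternatives they ran from 62 to 4190 (3753 as reported), 0 to 4961 (670), 9 to 4797 (4273), 1 to 1027 (244), 1241 to 4237 (3761) and 13 to 3558 (925), in the order above. Depth limits Rel (3 to 27 reads) and Tlr4 (12 to 119) most.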
